A study of Rattus norvegicus with 6 samples.

Results

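Heat shock proteins, their J-domain co-chaperones and the BAG family were examined in epididymal cells of Sprague-Dawley rats aged 48 days, split by magnetic separation into basal cells and the remaining, non-basal cells. Genes were taken by symbol: Hspa, Hspb, Hspd, Hspe, Hsph and Hsp90 for heat shock proteins, Dnaja, Dnajb and Dnajc for J-domain proteins, and Bag1 to Bag6. Of 18166 genes that could be named and tested, 69 met the rule: 23 heat shock proteins, 41 J-domain genes and 5 BAG genes. One of them, Hsp90aa1-ps2, is a pseudogene. Hsp90aa1, Hspa1a, Hspa1b, Dnajb6 and Dnajc8 lie on probe sets shared with another symbol and were not analysed here. Each fraction was measured on 3 Affymetrix RaGene 2.0 ST arrays, numbered below by the labels' replicate number, and levels are log2 RMA values, so a difference of 1 is a 2-fold change. The 2 groups differ only in the fraction; the labels name 3 rats and no treatment, do not give what was used to capture the basal cells, and do not say which rat an array came from. P-values thus measure the spread between these arrays, which may be technical.

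Chaperones keep other proteins foldable. HSP70 proteins bind and release unfolded chains with ATP, J-domain proteins bring them their clients and trigger ATP hydrolysis, and HSP110 and BAG proteins exchange the nucleotide. HSP90 finishes kinases and steroid receptors, small heat shock proteins hold unfolding proteins without ATP, and the chaperonin pair Hspd1 and Hspe1 folds proteins in mitochondria. The heat-inducible members are targets of the transcription factor HSF1 through heat shock elements, while the endoplasmic reticulum members, led by Hspa5 (BiP), serve secreted proteins and respond to the unfolded protein response. In the epididymis the principal cells secrete much of the luminal protein, and basal cells sit beneath them on the basement membrane.

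These promoters, in RefSeq sequence of the GRCr8 build, are shown because they belong to genes described below and carry the elements for which the heat-inducible and the endoplasmic reticulum genes are known. Each runs 5′ to 3′ from 250 bases before to 50 bases after the annotated start. Capitals mark a heat shock element, GAANNTTC or TTCNNGAA, or in Hspa5 and Hsp90b1 an endoplasmic reticulum stress element, the letters CCAAT and CCACG with 9 bases between them, on either strand.
Hspb1, chr12:26432252-26432551, minus strand: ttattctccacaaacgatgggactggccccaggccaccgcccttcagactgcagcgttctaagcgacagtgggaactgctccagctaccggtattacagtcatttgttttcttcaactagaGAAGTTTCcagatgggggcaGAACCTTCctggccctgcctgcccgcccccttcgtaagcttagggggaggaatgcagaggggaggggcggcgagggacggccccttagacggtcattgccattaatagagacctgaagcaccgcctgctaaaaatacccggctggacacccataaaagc
Hsph1, chr12:10427118-10427417, plus strand: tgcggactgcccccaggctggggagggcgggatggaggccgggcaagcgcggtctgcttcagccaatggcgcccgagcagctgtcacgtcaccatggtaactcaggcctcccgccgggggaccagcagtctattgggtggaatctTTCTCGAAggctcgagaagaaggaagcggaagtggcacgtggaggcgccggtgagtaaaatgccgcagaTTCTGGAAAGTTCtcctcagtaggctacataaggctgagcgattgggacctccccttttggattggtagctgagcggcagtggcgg
Dnajb1, chr19:41431092-41431391, minus strand: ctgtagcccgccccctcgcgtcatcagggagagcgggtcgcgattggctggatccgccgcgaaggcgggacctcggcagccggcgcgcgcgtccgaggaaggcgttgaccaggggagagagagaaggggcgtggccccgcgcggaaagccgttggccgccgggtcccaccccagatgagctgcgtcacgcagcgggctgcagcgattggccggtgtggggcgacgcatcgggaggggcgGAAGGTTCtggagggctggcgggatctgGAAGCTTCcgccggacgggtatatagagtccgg
Hspe1, chr9:64084077-64084376, plus strand: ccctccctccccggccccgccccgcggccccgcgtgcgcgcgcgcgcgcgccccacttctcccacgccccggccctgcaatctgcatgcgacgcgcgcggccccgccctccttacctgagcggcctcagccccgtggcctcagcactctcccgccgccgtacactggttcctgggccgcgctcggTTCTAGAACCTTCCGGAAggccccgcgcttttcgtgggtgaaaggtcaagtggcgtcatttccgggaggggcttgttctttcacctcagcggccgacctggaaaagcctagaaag
Hspa5, chr3:38452766-38453065, plus strand: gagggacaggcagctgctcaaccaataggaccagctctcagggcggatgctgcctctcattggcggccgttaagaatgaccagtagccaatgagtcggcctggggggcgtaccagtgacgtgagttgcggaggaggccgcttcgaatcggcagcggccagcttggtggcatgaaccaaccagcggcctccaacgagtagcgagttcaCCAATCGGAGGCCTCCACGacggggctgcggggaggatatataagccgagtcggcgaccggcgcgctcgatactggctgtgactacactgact
Hsp90b1, chr7:23012244-23012543, minus strand: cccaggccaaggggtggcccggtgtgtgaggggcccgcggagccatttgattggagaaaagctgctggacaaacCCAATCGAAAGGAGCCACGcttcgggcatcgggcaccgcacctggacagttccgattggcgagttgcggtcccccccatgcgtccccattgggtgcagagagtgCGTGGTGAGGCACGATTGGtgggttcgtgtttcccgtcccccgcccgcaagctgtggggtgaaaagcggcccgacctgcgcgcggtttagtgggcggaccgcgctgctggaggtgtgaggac
Hspb6, chr1:94934122-94934421, plus strand: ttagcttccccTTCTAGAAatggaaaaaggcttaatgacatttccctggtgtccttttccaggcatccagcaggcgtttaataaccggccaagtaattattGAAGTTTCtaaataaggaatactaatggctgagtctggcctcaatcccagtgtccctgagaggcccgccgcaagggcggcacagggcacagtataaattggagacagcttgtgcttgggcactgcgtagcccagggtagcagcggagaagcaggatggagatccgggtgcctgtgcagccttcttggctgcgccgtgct
Promoters were found for 57 of the 69 genes. A heat shock element was present in 16 of these 57 (28.1%) and in 15.4% of all 27457 promoters in the table. It was present in 10 of the 11 promoters of a heat-inducible list, which also holds the constitutive genes Hspa8 and Hsp90ab1, and in 0 of the 8 promoters of endoplasmic reticulum members. A longer form, 2 short elements that overlap by 3 bases, stood in 5 of the 57 and in 0.736% of all promoters. The endoplasmic reticulum stress element was found in 3 promoters, those of Hspa5, Hsp90b1 and Dnajc3, against 21 of all 27457 (0.0765%). Both motifs were first described in genes of these families, so these counts describe the sequences and are no independent finding. Hspd1 and Hspe1 are head-to-head neighbours whose promoter windows overlap by 211 bases and share 3 short heat shock elements, shown above on the Hspe1 strand. By direction of change, described below, a short element was in the promoters of 5 of 7 members higher in the basal fraction, 3 of 8 lower and 8 of 42 that did not pass, and the longer form in 3 of 7 higher, 0 of 8 lower and 2 of 42 that did not pass. Hspb6, which was lower, held 2 short elements, and Hsp90ab1, which was higher, held none in this window.

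Of 12 measured genes of the heat-inducible list 6 were higher in the basal fraction: Hspb1, Hsph1, Dnajb1, Hspd1, Dnaja1 and the constitutive Hsp90ab1. By the same test Hspb6 and Hspb7, small heat shock proteins of muscle, and Hspa5, of the endoplasmic reticulum, were lower. With limma and Benjamini-Hochberg adjustment over all 18166 genes, 8 members were higher in the basal fraction (11.6%; 7.71% of all genes) and 10 were lower (14.5%; 7.14% of all genes), while 51 did not pass. In 17 members all basal values lay above all non-basal ones (17.6% of all genes) and in 16 all lay below (15.3% of all genes). Together 26.1% of the members passed, against 14.9% of all genes tested. The median difference of the members was -0.00, and that of all genes was 0.00. Centring each array on its median gave 11 higher and 8 lower (57.9% of calls higher, against 44.4%), and it moved the median of all genes to 0.10. Over all genes the share of calls that were higher also rose, from 51.9% without centring to 64.8% with it. The changes were modest: only Dnajb3, Hspb1 and Hspb6 passed with a difference of 2-fold or more. Beside this, the basal fraction held more transcripts of epithelial basal cells (12 of 12 measured markers higher) and fewer of fibroblasts (11 of 12 lower), smooth muscle and pericytes (10 of 11 lower), endothelium (9 of 10 lower) and lymphocytes (8 of 12 lower). In such bulk fractions, fewer cells of a type and less RNA per cell cannot be told apart, and the part of these cell types in the chaperone differences was not tested.

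**Figure D1:**
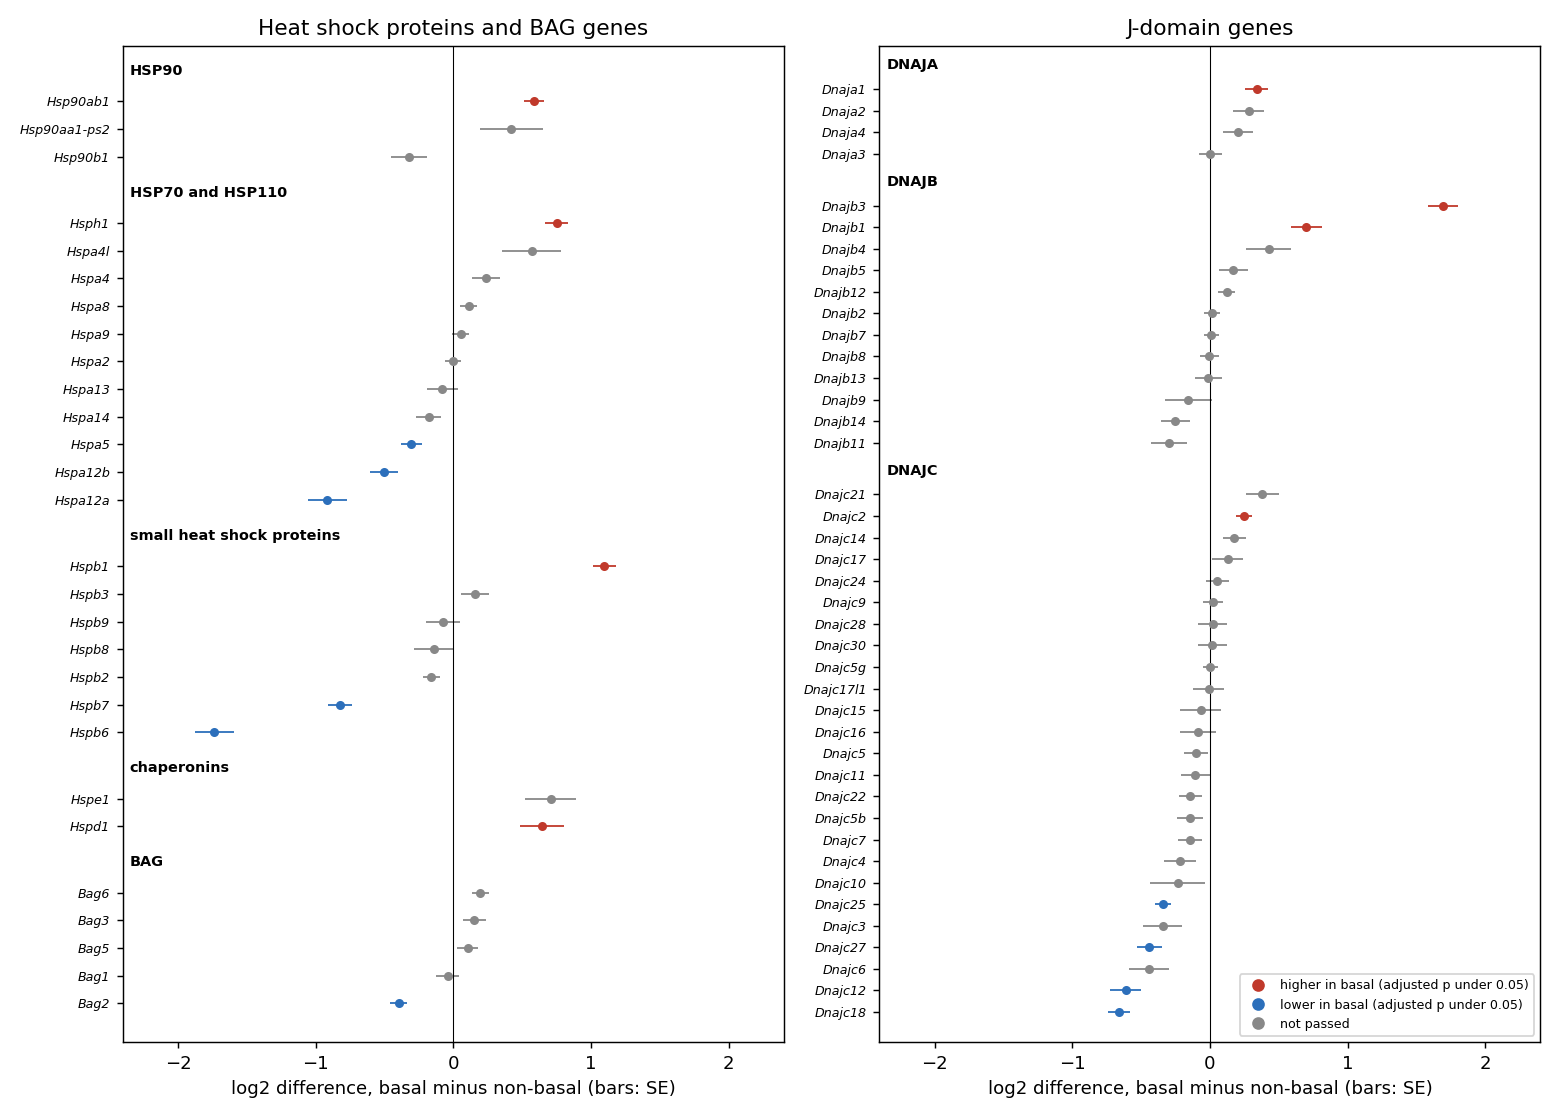
Log2 difference, basal minus non-basal, for each of the 69 genes (x axis), grouped by class, with limma's standard error as the bar; red and blue mark genes past an adjusted p of 0.05. Hspb1 and Hspb6, of the same class, lie at 1.10 and -1.74, and Dnajb3 lies highest at 1.69.

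The small heat shock proteins split. Hspb1 (HSP27), which holds unfolding proteins and binds the actin cytoskeleton, read 12.35, 12.38 and 12.27 on the 3 basal arrays and 11.17, 11.17 and 11.37 on the 3 non-basal arrays. All basal values lay above all non-basal ones, with a difference of 1.10 ± 0.0812 (SE; limma adjusted p = 0.00206), or 2.14-fold. Hspb6 (HSP20), abundant in smooth and heart muscle, read 9.67, 9.62 and 10.12 on the basal and 11.52, 11.54 and 11.56 on the non-basal arrays. Its level was lower on all basal arrays, by -1.74 ± 0.141 (limma adjusted p = 0.00232) or 3.33-fold, and basal array 3 was the highest of the basal values. Hspb7, a small heat shock protein of heart and vessels, read 6.19, 6.16 and 6.17 against 7.16, 6.89 and 6.94, and was lower by -0.82 ± 0.0874 (adjusted p = 0.00367). The gene Lin37 overlaps Hspb6 on the opposite strand in GRCr8, and its own difference was in the other direction, at 0.32, with an adjusted p of 0.0688. Beside Hspb6 and Hspb7, markers of smooth muscle and pericytes were lower in the basal fraction. Their summed linear signal ran from 3945 to 6659 on the basal and from 20321 to 22008 on the non-basal arrays. Basal array 3 lay nearest the non-basal arrays for these markers (median deviation -0.52, against -1.29 and -1.10 on the other basal arrays), as for Hspb6. The same held for fibroblast markers (-0.70, against -2.77 and -2.27). Hspb7 had basal values of 6.16 to 6.19 and no rise on array 3. The part of these cell types in the Hspb6 and Hspb7 differences was not tested.

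The other 4 small heat shock proteins did not pass. Hspb2, which binds a muscle protein kinase, differed by -0.16, Hspb8, the partner of Bag3 in clearing damaged proteins, by -0.14, Hspb9 by -0.07 and Hspb3 by 0.16, with adjusted p between 0.145 and 0.727. Cryab, the alpha B-crystallin gene and by function also a small heat shock protein, lies outside the symbol rule and was listed among the chaperone partners. It read 12.09, 12.04 and 11.76 on the basal and 11.13, 10.66 and 10.93 on the non-basal arrays, a difference of 1.06 ± 0.148 (limma adjusted p = 0.00767). The products of Cryab and Hspb1 assemble together. In GRCr8 Hspb2 overlaps Cryab, and signal of the 2 genes may not be fully separate.

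Among HSP70 and HSP110 genes, 1 of 11 was higher (9.09%, against 7.71% of all genes) and 3 were lower (27.3%, against 7.14%). Hsph1 (HSP105), an HSP110 protein that exchanges nucleotide on HSP70, read 12.57, 12.58 and 12.36 on the basal and 11.83, 11.73 and 11.70 on the non-basal arrays. The fractions did not overlap, and the difference was 0.75 ± 0.0854 (limma adjusted p = 0.00438), or 1.68-fold. Its relatives Hspa4l and Hspa4 differed by 0.57 and 0.24 and did not pass (adjusted p = 0.144 and 0.175). Hspa8, the constitutive cytosolic HSP70, read 13.95, 13.92 and 13.82 against 13.78, 13.79 and 13.79, a difference of 0.11 ± 0.0624 that did not pass (adjusted p = 0.290). Hspa9 (mortalin), the mitochondrial HSP70, differed by 0.05 ± 0.0599 (adjusted p = 0.590), and Hspa2, an HSP70 of germ cells, by -0.00 (adjusted p = 0.990).

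The divergent HSP70 genes Hspa12a and Hspa12b were lower in the basal fraction. Hspa12a read 6.71, 6.24 and 6.25 on the basal and 7.25, 7.38 and 7.31 on the non-basal arrays, a difference of -0.91 ± 0.14 (limma adjusted p = 0.0103). A second probe set of Hspa12a did not show it, with a difference of 0.01 and an adjusted p of 0.936 over all named probe sets. The Hspa12a call was also lost without basal array 2 (adjusted p = 0.0537), non-basal array 2 (0.0539) or non-basal array 3 (0.0593). Hspa12b, known from endothelial cells, read 6.58, 6.77 and 6.85 against 7.11, 7.27 and 7.33, a difference of -0.50 ± 0.1 (adjusted p = 0.0241). Endothelial markers were also lower, with a summed linear signal of 1234 to 1605 on the basal and 3892 to 4363 on the non-basal arrays. So were markers of fibroblasts, smooth muscle and lymphocytes, and the part of these cells in the Hspa12b difference was not tested. The Hspa12b call was lost without basal array 1 (adjusted p = 0.074) or 2 (0.0846) or non-basal array 2 (0.0897) or 3 (0.0998).

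Hsp90ab1, the constitutive cytosolic HSP90, read 11.67, 11.64 and 11.51 on the basal and 11.08, 11.03 and 10.96 on the non-basal arrays. Its difference was 0.59 ± 0.0734 (limma adjusted p = 0.00558), with means of 11.61 ± 0.0851 and 11.02 ± 0.0608 (SD, n = 3). RefSeq lists 23 pseudogene copies of Hsp90ab1 and 33 of Hspa8, so the assignment of signal to these genes is uncertain. The pseudogene Hsp90aa1-ps2 differed by 0.42 with overlapping fractions (adjusted p = 0.270), and Hsp90b1 is described with the endoplasmic reticulum genes below.

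The mitochondrial chaperonin genes were brighter in the basal fraction on all arrays. Hspd1 (HSP60) read 11.64, 11.65 and 11.12 on the basal and 10.87, 10.90 and 10.70 on the non-basal arrays, with a difference of 0.64 ± 0.16 (limma adjusted p = 0.0471). A second probe set of Hspd1 gave 0.75 with an adjusted p of 0.0202 over all named probe sets, and RefSeq lists 20 pseudogene copies. Its co-chaperonin Hspe1 (HSP10), transcribed from the shared promoter printed above, read 11.53, 11.49 and 11.00 against 10.90, 10.46 and 10.53. The Hspe1 difference of 0.71 ± 0.185 did not pass (adjusted p = 0.0554). For both genes basal array 3 lay nearest the non-basal arrays. Without it the adjusted p was 0.00547 for Hspd1 and 0.0208 for Hspe1, whereas leaving out any other array raised that of Hspd1 to between 0.0888, without non-basal array 1, and 0.166, without non-basal array 3 (0.157 without basal array 1, 0.163 without basal array 2, 0.118 without non-basal array 2). Hspe1 also passed without non-basal array 1 (0.0418). The other mitochondrial members, Hspa9, Dnaja3, Dnajc4, Dnajc11, Dnajc15 and Dnajc30, differed by -0.22 to 0.05, and none passed in this fit.

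**Figure D2:**
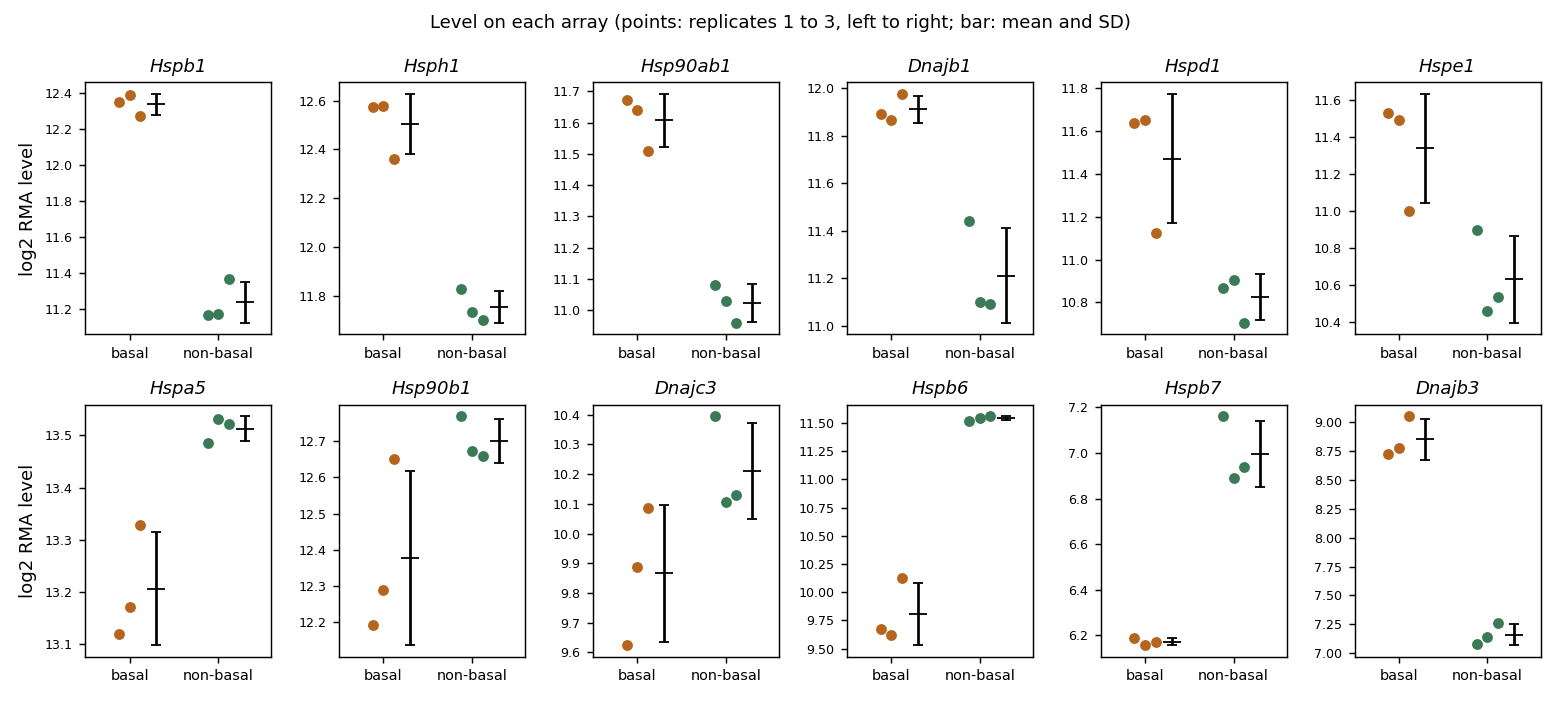
Level of 12 chaperone genes on each array (y axis, log2 RMA units, a separate range for each gene), with points for the 3 replicates of each fraction and a bar for the mean and SD. The first row holds genes of the heat-inducible list, all higher on the 3 basal arrays; in the second row Hspa5, Hsp90b1, Dnajc3, Hspb6 and Hspb7 lie lower on the basal arrays and Dnajb3 higher.

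Of the 17 genes of the heat-inducible list, 12 were measured. Hspa1a, Hspa1b and Hsp90aa1, which lie on shared probe sets, are not among the 12, so the counts do not cover them. Of these 6 were higher (7.71% of all genes), 0 were lower (7.14% of all genes) and 6 did not pass. The 6 were Hspb1, Hsph1, Dnajb1, Hspd1, Dnaja1 and Hsp90ab1, of which Hsp90ab1 is known as a constitutive gene. The list also holds the constitutive Hspa8 and the mitochondrial pair Hspd1 and Hspe1. In 10 of the 12 all basal values lay above all non-basal ones, an arrangement seen in 17.6% of all genes, and the median difference was 0.58 against 0.00 for all genes. Of the remaining members, Hspa4l, Hspe1, Dnajb4, Bag3 and Hspa8 had positive differences and Hspb8 a negative one. The Hspb8 difference turned positive with array weights, and also with basal array 3 and non-basal array 1 both left out. The median deviation of the list was 0.38 and 0.26 on basal arrays 1 and 2, 0.02 on basal array 3, and between -0.39 and -0.17 on the non-basal arrays. With basal array 1 or 2 or non-basal array 2 or 3 left out, 3 of the 12 were higher. Over all genes 1401 were higher with all 6 arrays, and 509 to 624 with 1 of these arrays left out. With basal array 3 and non-basal array 1 both left out, a setting chosen after seeing the data, 8 of the 12 were higher (2499 of all genes).

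Partners of these chaperones had 25 positive and 9 negative differences. All basal values lay above all non-basal ones in 11 of 34 (17.6% of all genes) and below in 4 (15.3% of all genes). Of the 34 measured partner genes 7 were higher (20.6%, against 7.71% of all genes) and 0 were lower (7.14% of all genes). Their median difference was 0.14, but 1 was higher when basal array 1 or 2 or non-basal array 2 or 3 was left out. In those fits 509 to 624 of all genes were higher, against 1401 with all 6 arrays. Other settings also called partners lower. With array weights 12 were higher and 4 lower (2868 and 2323 of all genes). Without basal array 3 these were 9 and 3 (2068 and 1475), and without non-basal array 1 they were 6 and 1 (1365 and 1607). With both of these arrays left out, 10 and 4 were called (2499 and 2124). The 7 were Cryab, Ppid, Grpel2, Hsf1, Ahsa2, Unc45a and Chordc1. Hsf1, the heat shock transcription factor, read 9.65, 9.72 and 9.58 on the basal and 9.30, 9.41 and 9.25 on the non-basal arrays, a difference of 0.33 ± 0.0735 (limma adjusted p = 0.0333). Grpel2, a nucleotide exchange factor of mitochondrial HSP70, was higher by 0.89 ± 0.158 (adjusted p = 0.016), and Chordc1, an HSP90 co-chaperone, by 0.72 ± 0.174 (adjusted p = 0.0441). Among 12 subunits of the cytosolic chaperonin TRiC and of prefoldin, which passes it clients, all differences were positive (median 0.25), and Cct6a, at 0.50 ± 0.125 (adjusted p = 0.0492), was the only one that passed; 6 passed without basal array 3 and 0 when any other array was left out. Immediate early genes, which respond to tissue handling, went both ways, with 7 of 25 higher and 4 lower (28% and 16%, against 7.71% and 7.14% of all genes). Their part in the chaperone differences was not tested.

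**Figure D3:**
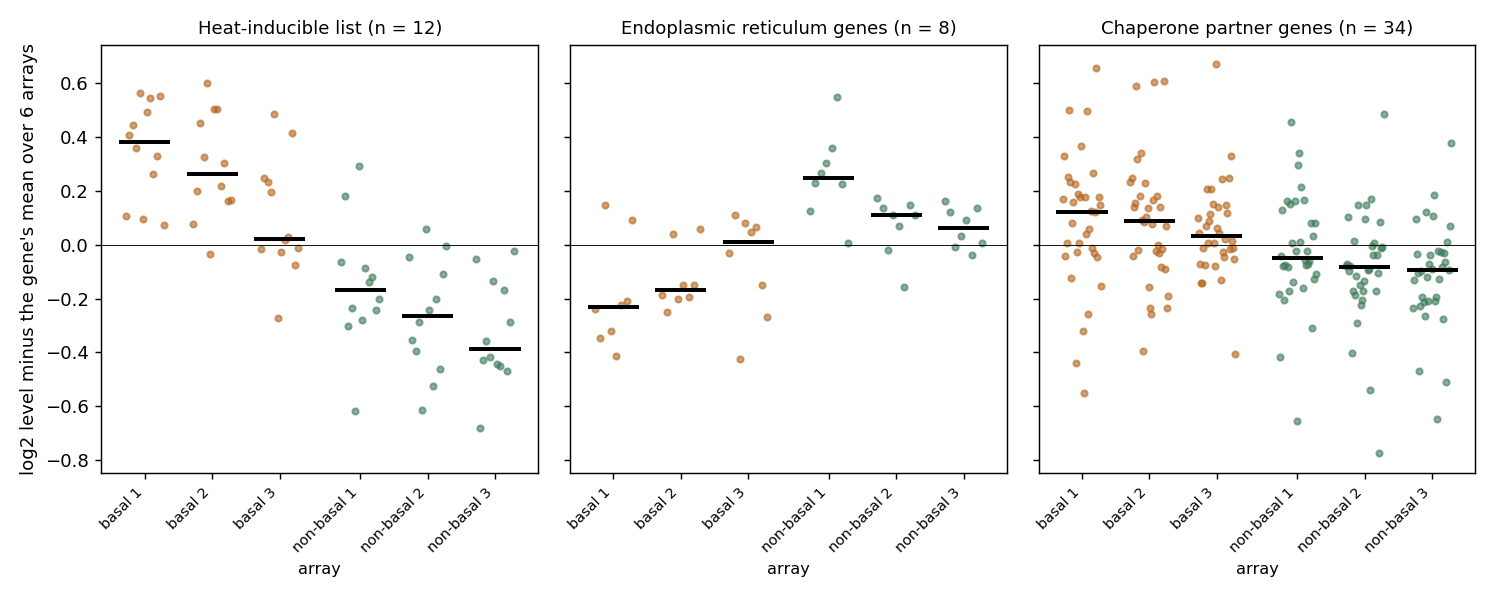
Level of each gene minus its mean over the 6 arrays (y axis, log2 units) for the heat-inducible list, endoplasmic reticulum members and chaperone partners, by array (x axis); each point is a gene and the black bar is the median. The median of the heat-inducible list falls to 0.02 and that of the endoplasmic reticulum genes rises to 0.01 on basal array 3, which lies between the other basal arrays and the non-basal arrays.

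The listed members of the endoplasmic reticulum went the other way. Hspa5 (BiP), the reticulum's HSP70, read 13.12, 13.17 and 13.33 on the basal and 13.49, 13.53 and 13.52 on the non-basal arrays, and was lower by -0.31 ± 0.0755 (limma adjusted p = 0.0464). Hsp90b1 (GRP94), its HSP90, read 12.19, 12.29 and 12.65 against 12.77, 12.67 and 12.66, and Dnajc3, a J-domain partner of Hspa5, read 9.62, 9.89 and 10.09 against 10.40, 10.11 and 10.13. In both genes the basal values lay below the non-basal values with basal array 3 close to them, and neither passed (-0.32 ± 0.129, adjusted p = 0.159, and -0.34 ± 0.143, adjusted p = 0.172). All 8 measured members of the endoplasmic reticulum list had negative differences, with a median of -0.30, and in 4 of them all basal values lay below all non-basal ones (15.3% of all genes). The list was chosen with earlier results of these data known, so the shared direction is stated for these 8 genes only. Among J-domain genes outside the list, Dnajb12 and Dnajc14 differed by 0.12 and 0.18 and Dnajb14 by -0.25, and none of them passed. Of the 8, 2 were lower, Hspa5 and Dnajc25 (7.14% of all genes were lower), and 0 were higher. The remaining members were Dnajb11, a J-domain partner of Hspa5 (-0.30), Dnajc10, a disulphide reductase (-0.24), Dnajb9, a partner in degradation (-0.16), and Hspa13 (-0.08), and none of them passed. Dnajc25 is given with its class. After centring the arrays 7 of the 8 were negative and 0 were lower by limma's test. Relative to the median of all genes the list median was then still -0.30. With array weights 7 of the 8 were negative. Without basal array 3, and also without both basal array 3 and non-basal array 1, 6 of the 8 were negative.

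The Hspa5 call depended on the arrays and the settings. It was lost with quantile normalization (adjusted p = 0.12), with centring (0.106) and with an intensity trend and robust fit (0.0521). Its adjusted p was 0.0162 without basal array 3, but 0.141 without basal array 1, 0.15 without basal array 2, and 0.0697, 0.136 and 0.139 without non-basal arrays 1, 2 and 3. Without basal array 3, Hsp90b1 also passed (adjusted p = 0.0153), and 3 of the 8 were lower. Of 29 further genes of protein folding and stress in the reticulum, 4 were lower (13.8%, against 7.14% of all genes) and 2 were higher (6.90%, against 7.71%). Their median was -0.20, and they include Hyou1, also listed among the chaperone partners. The 4 were Xbp1, the transcription factor of secretory cells, Atf6, a stress sensor, P4hb, a disulphide isomerase, and Sel1l, of the degradation complex, with differences between -0.38 and -0.28. The higher ones were Ern1 and Ppp1r15a, at 0.45 and 0.58. After centring, 1 was lower and 2 were higher. The number lower was 6 without basal array 3, 2 without non-basal array 1, 1 without non-basal array 3, and 0 when any of the other 3 arrays was left out. Over all genes 1475 were lower without basal array 3, 1607 without non-basal array 1, and 542 to 637 without any of the other arrays. Markers of principal cells moved in the same direction on the same arrays: the median deviation of 13 genes was -0.81 and -0.26 on basal arrays 1 and 2, 0.32 on basal array 3 and 0.13 to 0.35 on the non-basal arrays. Their summed linear signal was 43270 to 64401 on the basal and 61489 to 73627 on the non-basal arrays, 1 of the 13 was lower by the test, and their part in the differences of the reticulum genes was not tested.

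J-domain genes differed gene by gene. Of 41 J-domain genes 4 were higher and 4 were lower, 9.76% each, near the 7.71% and 7.14% of all genes. Dnajb3, a J-domain gene best known from testis, had the highest difference of all members: it read 8.73, 8.77 and 9.05 on the basal and 7.08, 7.14 and 7.26 on the non-basal arrays, a difference of 1.69 ± 0.108 (limma adjusted p = 0.00176), or 3.23-fold. In GRCr8, Dnajb3 lies within the Ugt1a locus, where 7 glucuronosyltransferase genes overlap it; the 6 with a strand in the promoter table run on the opposite strand. These 7 genes were not tested here, so their part in the Dnajb3 signal was not tested. Of 18 markers of spermatids and sperm 1 was higher and 1 was lower, 5.56% each, against the 7.71% and 7.14% of all genes. Their summed linear signal was 1398 to 1425 on the basal and 1410 to 1466 on the non-basal arrays. The part of such cells in the Dnajb3 signal was not tested.

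Dnajb1 (HSP40), the main heat-inducible partner of HSP70, read 11.89, 11.86 and 11.98 on the basal and 11.44, 11.10 and 11.09 on the non-basal arrays. It was 1.62-fold higher (0.70 ± 0.112, limma adjusted p = 0.0118), with non-basal array 1 nearest the basal arrays. Its adjusted p was 0.00393 without that array, but 0.0558 without basal array 1, 0.0555 without basal array 2, 0.0547 without non-basal array 2 and 0.0599 without non-basal array 3. Dnaja1, a farnesylated cytosolic J-domain protein, read 13.24, 13.19 and 13.00 against 12.84, 12.77 and 12.81, a difference of 0.34 ± 0.0813 (adjusted p = 0.0428). That call held when basal array 3 was left out (adjusted p = 0.0128) and with no other array left out: 0.135 without basal array 1, 0.145 without basal array 2, 0.0669, 0.133 and 0.132 without non-basal arrays 1, 2 and 3. The relatives Dnaja2 and Dnaja4 differed by 0.28 and 0.20 without passing, and the mitochondrial Dnaja3 by 0.00. Dnajb4, close in sequence to Dnajb1, differed by 0.43 (adjusted p = 0.148), while a second probe set of Dnajb4 passed at 0.64 (adjusted p = 0.0337 over all named probe sets). The remaining Dnajb genes, among them the radial spoke gene Dnajb13 and the testis genes Dnajb7 and Dnajb8, differed by -0.30 to 0.17.

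The Dnajc class, whose members carry a J domain on otherwise unrelated proteins, had 1 higher and 4 lower of 25. These are 4% and 16%, against 7.71% and 7.14% of all genes. Dnajc2, which binds ribosomes together with Hspa14, read 8.56, 8.51 and 8.49 on the basal and 8.29, 8.23 and 8.29 on the non-basal arrays, a difference of 0.25 ± 0.0586 (limma adjusted p = 0.0399). Its partner Hspa14 differed by -0.18 and did not pass (adjusted p = 0.240). Dnajc18 read 8.53, 8.43 and 8.63 against 9.11, 9.25 and 9.22, and was lower by -0.66 ± 0.0789 (adjusted p = 0.0049). Dnajc12, a partner of aromatic amino acid hydroxylases, read 7.05, 7.20 and 7.15 against 7.96, 7.68 and 7.60, and was lower by -0.61 ± 0.11 (adjusted p = 0.017). Dnajc27, a Rab-like GTPase with a J domain, read 7.06, 7.24 and 7.09 against 7.48, 7.71 and 7.52, and Dnajc25, a membrane J-domain protein, read 9.24, 9.29 and 9.29 against 9.67, 9.59 and 9.58. The fractions of these 5 genes did not overlap, which held for 32.9% of all genes. Dnajc27 was lower by -0.44 ± 0.0903 (adjusted p = 0.0263) and Dnajc25 by -0.34 ± 0.0611 (adjusted p = 0.017). The largest differences among the 20 that did not pass were those of the clathrin-uncoating gene Dnajc6 (-0.44, adjusted p = 0.1) and of Dnajc21, which acts in ribosome assembly (0.38, adjusted p = 0.0952).

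Of the Dnajc calls, that of Dnajc18 held in all 6 fits with 1 array left out. The Dnajc2 call held without basal array 3 only (adjusted p = 0.042), with 0.127 and 0.107 without basal arrays 1 and 2 and 0.0529, 0.12 and 0.103 without non-basal arrays 1, 2 and 3. Dnajc12 was lost without basal array 1 (0.0768), basal array 2 (0.0648) or non-basal array 2 (0.0584), and Dnajc25 without basal array 1 (0.0699) or 2 (0.0614) or non-basal array 2 (0.0585) or 3 (0.0576). Dnajc27 held without non-basal array 1 only (0.0336); its adjusted p was 0.102, 0.058 and 0.0535 without basal arrays 1, 2 and 3, and 0.0739 and 0.0823 without non-basal arrays 2 and 3. Quantile normalization also ended the Dnajc27 call (0.0535), centring that of Dnajc25 (0.0683), and the intensity trend and robust fit that of Dnajc2 (0.053).

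In the BAG family, whose shared domain binds HSP70, 1 of 5 was lower (7.14% of all genes) and 0 were higher (7.71% of all genes). Bag2, an inhibitor of the ubiquitin ligase CHIP, read 7.44, 7.51 and 7.46 on the basal and 7.82, 7.91 and 7.86 on the non-basal arrays, a difference of -0.40 ± 0.0613 (limma adjusted p = 0.0107), with an adjusted p of 0.0506 without basal array 1. Bag3, a heat-inducible member that directs clients to autophagy, read 12.12, 12.22 and 12.04 against 11.85, 12.04 and 12.03. Its fractions overlapped, and the difference of 0.15 ± 0.0858 did not pass (adjusted p = 0.289). Bag6, which guards tail-anchored membrane proteins, differed by 0.20 (adjusted p = 0.0949), Bag5 by 0.11 and Bag1 by -0.04.

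**Figure D4:**
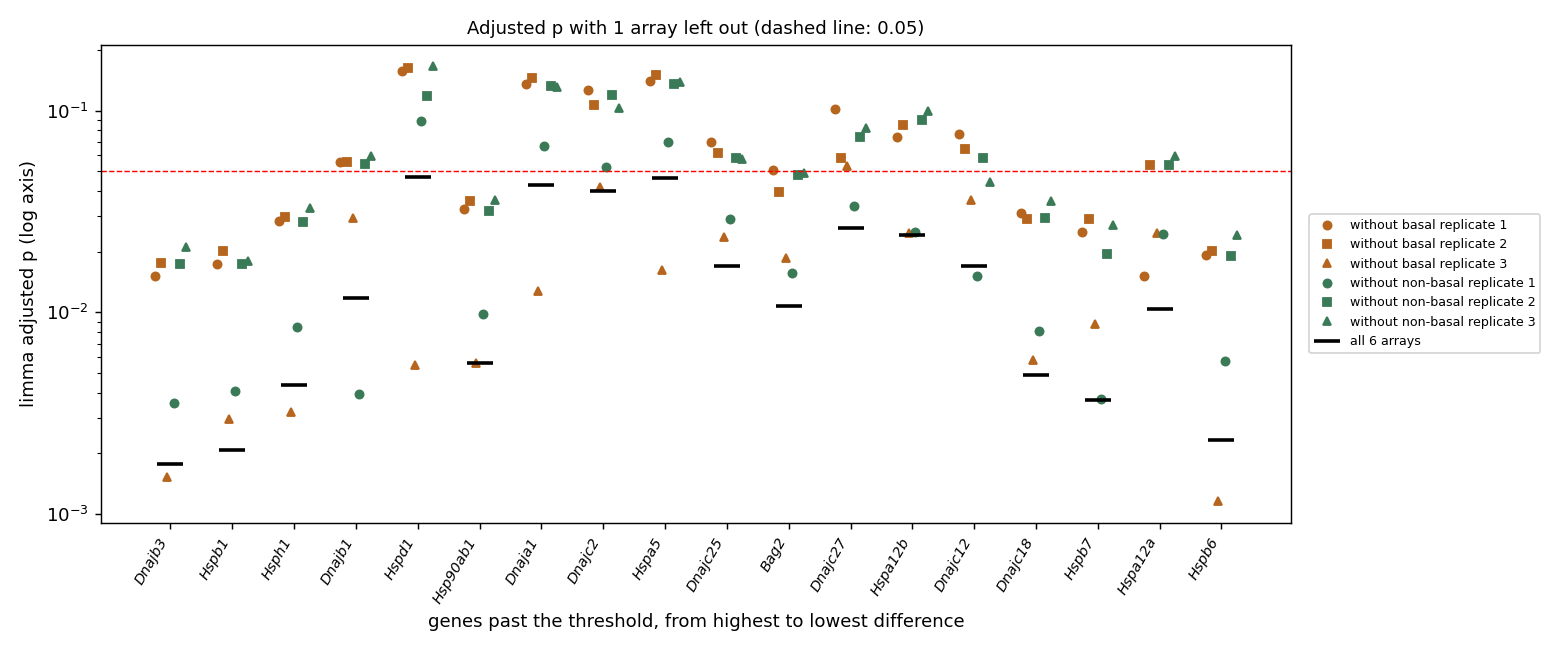
Limma adjusted p (y axis, log scale) of the 18 genes past the threshold, with all 6 arrays (black bar) and with each array left out (points). For Dnajb3, Hspb1, Hsph1, Hsp90ab1, Dnajc18, Hspb7 and Hspb6 every point lies under the dashed line at 0.05.

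Of the 18 calls, 7 held whichever single array was left out: Dnajb3, Hspb1, Hsph1 and Hsp90ab1 as higher, and Dnajc18, Hspb7 and Hspb6 as lower. The other 11 were lost in at least 1 of the 6 fits. The number of members higher was 4 with basal array 1 or 2 or non-basal array 2 or 3 left out. That number was 7 without non-basal array 1 and 11 without basal array 3. Over all genes 1401 were higher with all 6 arrays, 509 to 624 in the former fits, 1365 without non-basal array 1 and 2068 without basal array 3. The number of members lower was 4 with basal array 1 or 2 or non-basal array 2 left out, and 5 without non-basal array 3. That number was 9 without non-basal array 1 and 11 without basal array 3. Over all genes 1297 were lower with all 6 arrays, 542 to 637 in the former fits, 1607 without non-basal array 1 and 1475 without basal array 3.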

How the data were processed

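Total RNA of 3 basal and 3 non-basal epididymal fractions was hybridised to RaGene 2.0 ST arrays. The authors deposited log2 values, and the submitters' processing notes name RMA and Affymetrix Expression Console; versions and build are not given in the sources used here. RMA matches the arrays' distributions, so a shift of most genes would be removed.

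Of 36685 probe sets, 18511 carried 1 symbol in the platform annotation. The brightest probe set of each gene by its mean over the 6 arrays gave 18166 genes, and no filter was applied; all 69 members also passed a filter at a fraction mean of 5. Basal minus non-basal differences were fitted over all genes with limma 3.58.1 (lmFit, eBayes; R 4.3.3), two-sided, adjusted by Benjamini-Hochberg, with a threshold of 0.05; SE is limma's moderated one. The procedure was tested on simulated data with 50 genes changed at each size. Of differences of 0.5 in log2 units 22% passed, of those of 1 80%, and of those of 2 96%. A gene that did not pass may therefore still differ, above all by a small amount. Array medians were 6.63 to 6.70, and the number of arrays limits the precision. On the principal components, basal array 3 and non-basal array 1 stood apart from their fractions.

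Members, lists and the motifs were chosen with earlier results of these data known; the endoplasmic reticulum stress element was added after the values were seen. Named genes were all members past the threshold, up to 3 per class with the smallest p, and 15 reference members, of which those measured were used; other members and genes of the lists were named after their values were seen. Summed linear signal is the sum of 2 to the power of the log2 level over a list. Median deviation is the median over a list of a gene's level minus its mean over the 6 arrays. Alternatives were the replicate block, quantile normalization, median centring, the filter, array weights, the mean over a gene's probe sets, a robust fit with an intensity trend, a threshold of 0.10, and leaving out arrays.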

Additional observations from a re-analysis of the deposited data

How the results depend on the processing

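None of the 28 genes named by the rule changed sign in any alternative. Array weights gave 15 members higher and 14 lower (2868 and 2323 of all 18166 genes). Leaving out both basal array 3 and non-basal array 1 gave 12 and 12 (2499 and 2124 of all genes). With 1 array left out, 4 to 11 were higher and 4 to 11 lower (509 to 2068 and 542 to 1607 of all genes). The median difference of the 3 HSP90 genes was 0.42 with all 6 arrays, 0.59 with array weights and 0.66 with both arrays left out. With all 6 arrays, and with any 1 left out, this median is the value of the pseudogene Hsp90aa1-ps2, which did not pass. The other HSP90 genes went opposite ways, Hsp90ab1 at 0.59 and Hsp90b1 at -0.32, so the median does not describe the class. Centring moved the medians of HSP70 and HSP110 to 0.10, small heat shock proteins to -0.0428, DNAJA to 0.34, DNAJB to 0.11, DNAJC to 0.000345 and BAG to 0.20. Quantile normalization gave -0.0559 for small heat shock proteins and 0.0586 for DNAJB. With both arrays left out, chaperonins were at 0.93, DNAJA at 0.34 and DNAJB at 0.0605. With 1 array left out, medians ran from 0.219 to 0.575 for HSP90, 0.587 to 0.848 for chaperonins, -0.155 to -0.0717 for small heat shock proteins, 0.189 to 0.335 for DNAJA, 0.0132 to 0.0457 for DNAJB, -0.142 to -0.0175 for DNAJC and 0.0393 to 0.151 for BAG. The cause of these shifts was not tested.

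The share of promoters with a heat shock element was 8.77% for the longer motif. With the replicate number as a block, 7 members were higher and 7 lower, and 13 of the 18 calls were kept; those of Hspa5 (adjusted p = 0.102), Dnajc25 (0.0767), Dnaja1 (0.0939), Dnajc2 (0.126) and Dnajc12 (0.0573) were lost, leaving 0 endoplasmic reticulum members lower, and Hspe1 passed (0.0496). Samples share only a number. The deviations of same-numbered arrays correlated at 0.0312, 0.0383 and 0.0278, each the highest for its arrays. The last lay close to the 0.0270 of basal array 1 with non-basal array 3. With 3 arrays per fraction, values this small cannot show a pairing, and the design does not give one.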
